A study of Mus musculus with 8 samples.

Results

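The genes described here serve the lysosome, its proton pump and the trafficking of lysosome-related organelles. The list held 51 genes, matched by symbol to the probe annotation of the array, and a gene with several spots was read from the spot whose mean over the 8 arrays was highest. Of these, 50 were measured among the 24568 genes of the array, and Atp6v0c was not analysed here. By role, 3 code for lysosomal membrane proteins, 17 for hydrolases and their activators, 11 for trafficking proteins, 3 for a regulator and ion channels, 6 for V0 and 10 for V1 subunits of the proton pump.

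Lysosomes are acidic organelles in which hydrolases break down proteins, lipids and glycans, and the acid is supplied by the V-ATPase, a proton pump with a membrane-embedded V0 sector and a cytosolic V1 sector that splits ATP. Alveolar type II cells store surfactant in lamellar bodies, which are lysosome-related organelles that carry lysosomal membrane proteins and enzymes and are acidified by the same pump. The biogenesis and secretion of such organelles depend on Rab GTPases, on the AP-3 adaptor and on the BLOC complexes, whose loss causes Hermansky-Pudlak syndrome in humans.

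The samples were alveolar epithelial cells of embryonic mouse lungs, sorted by FACS into type I cells (AECI), which are flat and exchange gas, and type II cells (AECII), which make surfactant. Lungs called mutant after the labels had Fgfr2b signalling, the epithelial response to several fibroblast growth factors, inhibited in vivo between E16.5 and E18.5, and the others were WT. Each genotype had AECII and AECI samples, which gave 4 groups of 2 arrays, labelled with Cy5 after amplification of the RNA and described as biological replicates. The alleles, the driver of the inhibition, any treatment that WT lungs shared, the markers of the sort, the age at sorting and any pooling of embryos could not be taken from the sources used here. With 2 arrays per group the number of arrays limits the precision, and the p-values measure the spread between these samples only.

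Values are deposited log2 signals, on which a difference of 1 is a 2-fold difference. Each array had a median of 5.01 over its spots, and the lowest and highest signals were 2.27 and 15.99. Replicate arrays correlated with r of 0.962 to 0.977 across genes. The mean of 12 AECII markers was 13.76 to 13.83 on the AECII arrays and 10.86 to 11.82 on the AECI arrays, and that of 12 AECI markers was 12.89 to 13.10 on the AECI and 9.43 to 10.94 on the AECII arrays. Markers of airway cells were also higher on the AECII arrays, with a mean of 9.04 to 9.91 against 5.30 to 6.14 for 10 genes of ciliated cells and of 12.24 to 12.67 against 7.73 to 8.76 for 7 genes of club cells. The part of airway cells in the population differences below was not tested, and fewer cells of a type and less RNA per cell cannot be told apart in such samples. The WT arrays had an Xist signal of at least 12.44 and a signal of the Y-linked Uty of at most 3.24, and the mutant arrays had an Xist signal of at most 5.14 and a Uty signal of at least 6.71, so genotype and sex-linked expression cannot be told apart.

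In the comparison of AECII with AECI, 8 of the 50 members passed the threshold (adjusted p under 0.05) in WT lungs, 7 of them higher and 1 lower in AECII, where 7.01% of all genes passed (4.14% higher and 2.87% lower). In mutant lungs 8 members also passed, 7 higher and 1 lower, against 7.8% of all genes (4.87% higher and 2.93% lower). Rab27a, Atp6v1c2, Lipa, Ctsc, Ctsz and, as the lower gene, Atp6v0d2 passed in both genotypes, Neu1 and Atp6v1g1 in WT and Hexa and Hps6 in mutant lungs. The median difference of the 50 members was 0.36 in WT and 0.33 in mutant lungs, against 0.00 and -0.02 for all genes. Counting only whether both AECII arrays lay on the same side of both AECI arrays, 26 members were higher and 10 lower in WT lungs, where 25.6% and 23.4% of all genes did so, and 29 were higher and 9 lower in mutant lungs, against 26.5% and 25.7% of all genes.

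The population difference was also averaged over both genotypes, with 4 arrays on each side, a contrast that was added after the data had been seen. There 22 members passed, against 14.8% of all genes, with 17 higher and 5 lower in AECII, against 9.01% and 5.8% of all genes. Over all 50 members, the 4 AECII arrays lay on one side of the 4 AECI arrays for 20 that were higher and 6 that were lower. This held for 12.4% and 9.6% of all genes. By role, 8 hydrolases were higher and 1 was lower, 2 trafficking genes were higher and 1 was lower, 2 V0 subunits were higher and 3 were lower, and 5 V1 subunits were higher and 0 lower. No lysosomal membrane gene, regulator or channel of the list passed. These 3 contrasts share arrays, so the averaged values are not a further observation beside those of each genotype.

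**Figure D1:**
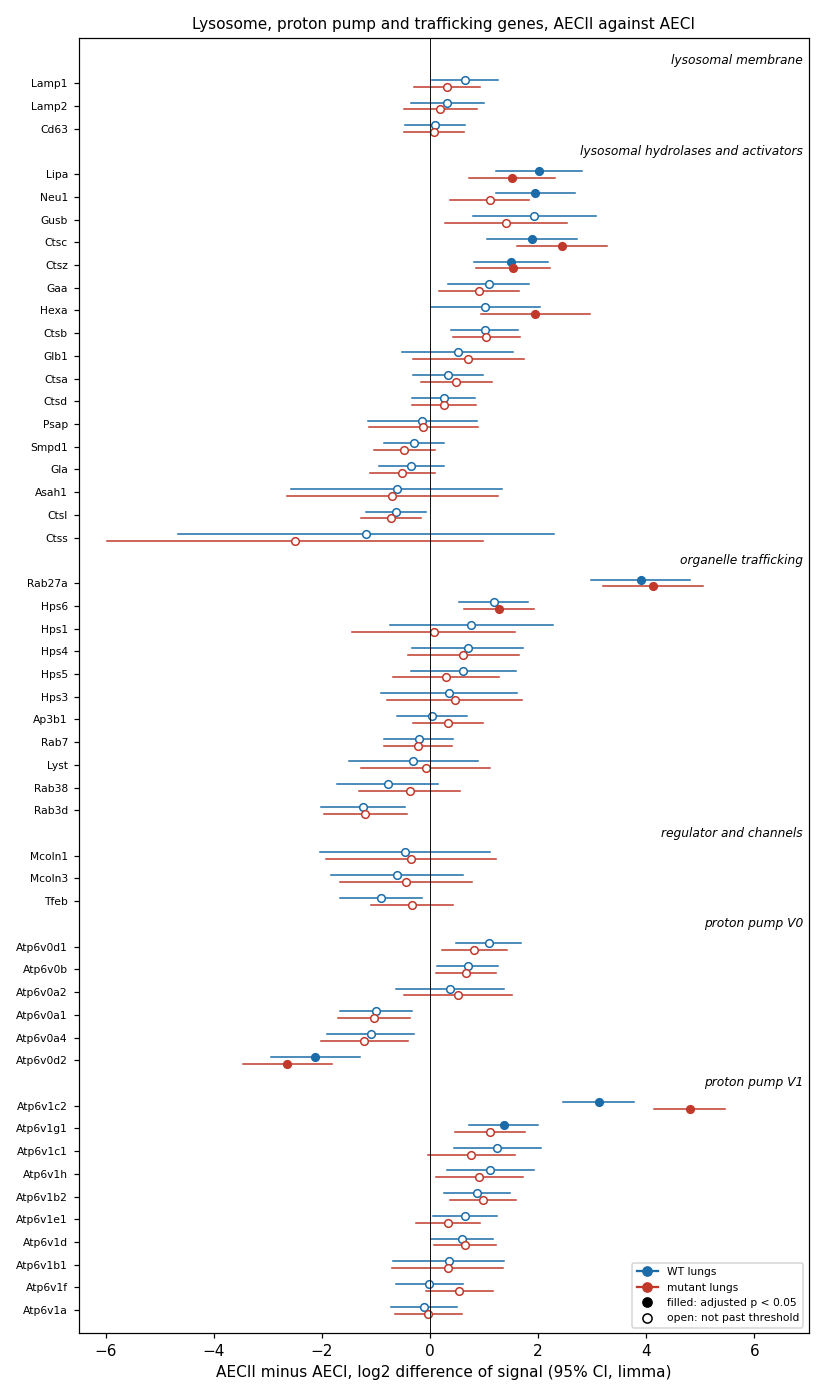
Log2 difference of AECII minus AECI for each of the 50 members, by role, in WT (blue) and mutant lungs (red), with 95% confidence intervals from limma; filled points passed the threshold. Rab27a (3.89 and 4.12) and Atp6v1c2 (3.12 and 4.80) lie farthest to the right, Atp6v0d2 lies to the left (-2.12 and -2.64), and the interval of Ctss is the widest.

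Rab27a, a small GTPase that docks secretory lysosomes and related organelles at the plasma membrane, had the largest averaged difference of the 50 members. Its signal was 9.79 and 10.61 in AECII and 6.45 and 6.16 in AECI of WT lungs, and 10.37 and 9.74 in AECII and 5.72 and 6.14 in AECI of mutant lungs. All 4 AECII arrays were far above all 4 AECI arrays. The difference was 3.89 ± 0.388 (SE, n = 2 per group) in WT lungs (limma, adjusted p = 0.00314) and 4.12 ± 0.388 in mutant lungs (adjusted p = 0.00227). A further spot of Rab27a, which was dimmer, differed by 3.57 and 3.45. This call and that of Atp6v1c2 held in both genotypes under every alternative that was run.

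Rab3d, a GTPase of regulated exocytosis known from secretory granules, moved the other way. Its signal was 8.80 and 9.09 in AECII and 10.53 and 9.84 in AECI of WT lungs, and 8.40 and 8.22 in AECII and 9.34 and 9.68 in AECI of mutant lungs. The populations did not overlap and AECI was the higher. Its averaged difference was -1.22 ± 0.229 (adjusted p = 0.0139), while the differences within a genotype, -1.24 and -1.20, did not pass (adjusted p = 0.0753 and 0.0789). Its second spot, the dimmer one, differed by -0.15 in WT and -0.37 in mutant lungs, and with the mean of both spots the averaged difference was -0.74. The averaged call was lost under 2 of 16 alternatives.

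Rab38, whose loss disturbs lamellar bodies and melanosomes in rodents, had signals of 8.19 and 7.82 in AECII and 9.21 and 8.36 in AECI of WT lungs, and 7.93 and 8.32 in AECII and 8.18 and 8.81 in AECI of mutant lungs. The populations overlapped across the genotypes, and the difference of -0.78 in WT and -0.38 in mutant lungs did not pass (adjusted p = 0.344 and 0.654). Rab7, the GTPase of late endosomes and lysosomes, was between 12.94 and 13.36 on all 8 arrays, with differences of -0.21 and -0.23 that did not pass (adjusted p = 0.739 and 0.696).

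On the spots used, Hps6 was the only Hermansky-Pudlak gene past the threshold, in mutant lungs and in the averaged contrast. Hps3, Hps5 and Hps6 form BLOC-2, and Hps1 and Hps4 form BLOC-3, which activates Rab GTPases. The signal of Hps6 was 4.87 and 5.31 in AECII and 3.90 and 3.93 in AECI of WT lungs, and 5.59 and 5.60 in AECII and 4.17 and 4.47 in AECI of mutant lungs. All AECII arrays were above all AECI arrays, at signals near the median of an array. The difference was 1.17 ± 0.271 in WT (adjusted p = 0.0508) and 1.27 ± 0.271 in mutant lungs (adjusted p = 0.0359), and the latter call was lost under 13 of 16 alternatives.

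Hps4 had 8.82 and 9.41 in AECII and 8.73 and 8.12 in AECI of WT lungs, and 8.97 and 10.02 in AECII and 8.96 and 8.81 in AECI of mutant lungs. Its differences, 0.69 in WT and 0.61 in mutant lungs, were not past the threshold (adjusted p = 0.451 and 0.485). Hps1 had 7.04 and 6.83 in AECII and 5.23 and 7.11 in AECI of WT lungs, and 6.13 and 7.06 in AECII and 6.83 and 6.23 in AECI of mutant lungs, so that its populations overlapped. Hps3 had 6.40 and 6.26 in AECII and 6.30 and 5.65 in AECI of WT lungs, and 6.17 and 6.73 in AECII and 6.76 and 5.23 in AECI of mutant lungs. A dimmer spot of Hps3 had 5.28 and 3.54 in AECII and 6.31 and 6.16 in AECI of WT lungs. In mutant lungs this spot had 4.61 and 4.08 in AECII and 6.71 and 5.70 in AECI, so that its AECII arrays were all the lower. The dimmest spot of Hps3 (mean 3.32) overlapped between the populations. Hps5 had 8.35 and 8.31 in AECII and 7.81 and 7.63 in AECI of WT lungs, and 8.27 and 7.83 in AECII and 7.17 and 8.34 in AECI of mutant lungs. The sign of the difference of Hps1, Hps3 and Hps5 turned under an alternative in at least 1 genotype, and so no direction is given. Nor is one given for Ap3b1, the large subunit of AP-3, which ranged from 9.66 to 10.42. The same holds for Lyst, the regulator mutated in Chediak-Higashi syndrome, which ranged from 5.14 to 6.55. Hps5 and Lyst turned only with 1 array left out. The next spot of Lyst, about as bright (mean 5.95), was 4.31 to 5.78 in AECII and 5.79 to 7.27 in AECI.

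Of the V1 subunits, Atp6v1c2 separated the populations most. It codes for the C2 isoform of the C subunit, which joins the V1 and V0 sectors, and it is expressed in fewer tissues than the C1 isoform. Its signal was 11.26 and 11.66 in AECII and 8.31 and 8.37 in AECI of WT lungs, and 11.52 and 11.92 in AECII and 6.89 and 6.95 in AECI of mutant lungs. Every AECII array was well above every AECI array, and within AECI both mutant arrays lay below both WT arrays. The difference between populations was 3.12 ± 0.278 in WT (adjusted p = 0.00233) and 4.80 ± 0.278 in mutant lungs (adjusted p = 0.000906). Cftr, a marker of airway ionocytes that distal lung epithelium also expresses, was called with it (12.29 to 13.00 in AECII and 8.58 to 9.72 in AECI). The ionocyte factor Foxi1 was between 6.75 and 8.26 and did not separate the populations. Of 5 ionocyte markers measured, 1 was called in each genotype, and their median difference was -0.02 in WT and 0.23 in mutant lungs. The part of ionocytes was not tested.

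The isoform Atp6v1c1, which most tissues express, had 9.13 and 9.26 in AECII and 7.53 and 8.37 in AECI of WT lungs, and 8.98 and 8.83 in AECII and 7.98 and 8.31 in AECI of mutant lungs. It was also higher in AECII on every array, with an averaged difference of 1.0 ± 0.239 (adjusted p = 0.0341), although neither genotype passed by itself (adjusted p = 0.0849 and 0.257). Since levels of different probes cannot be compared, the log2 ratio of the C2 to the C1 signal was taken within each array and centred on its mean over the arrays. That ratio was 1.07 to 2.03 on the AECII arrays and -2.42 to -0.29 on the AECI arrays. The C2 isoform thus differed between the populations by 2.96 more than the C1 isoform did.

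Atp6v1g1, a subunit of the peripheral stalk, had 14.04 and 13.54 in AECII and 12.43 and 12.43 in AECI of WT lungs, and 13.54 and 13.57 in AECII and 12.35 and 12.54 in AECI of mutant lungs. It was higher in AECII throughout, by 1.36 ± 0.272 in WT (adjusted p = 0.0305) and 1.11 ± 0.272 in mutant lungs (adjusted p = 0.0576). The call in WT lungs was lost under 10 of 17 alternatives. Atp6v1b2, the widely expressed isoform of the B subunit at the ATP-binding sites, had 14.51 and 14.52 in AECII and 13.80 and 13.49 in AECI of WT lungs, and 14.64 and 14.37 in AECII and 13.55 and 13.50 in AECI of mutant lungs. Its averaged difference of 0.93 ± 0.181 passed (adjusted p = 0.0162), with no overlap. Atp6v1b1, the B isoform of kidney intercalated cells and the epididymis, was between 2.79 and 3.97 on all arrays, among the dimmest signals of the array.

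Atp6v1h, a regulatory subunit, had 10.92 and 10.35 in AECII and 9.76 and 9.29 in AECI of WT lungs, and 10.49 and 10.09 in AECII and 9.20 and 9.56 in AECI of mutant lungs. It was higher on each AECII array, and its averaged difference was 1.01 ± 0.238 (adjusted p = 0.0322). The rotor subunit Atp6v1d ranged from 10.56 to 10.63 in AECII and from 9.86 to 10.14 in AECI, without overlap, but its averaged difference of 0.61 did not pass (adjusted p = 0.0581). Atp6v1e1, a subunit of the peripheral stalk, differed by 0.65 in WT and 0.32 in mutant lungs (adjusted p = 0.206 and 0.524). The catalytic subunit Atp6v1a ranged from 13.09 to 13.51 and Atp6v1f, of the central rotor, from 9.82 to 10.59. For neither was the direction of the population difference kept under every alternative. That of Atp6v1f turned only in WT lungs, with 1 array left out.

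The V0 sector held calls in both directions. Atp6v0d2, an isoform of the d subunit known from osteoclasts, macrophages and kidney, was the 1 member lower in AECII by the test within each genotype. Its signal was 3.99 and 4.12 in AECII and 6.18 and 6.17 in AECI of WT lungs, and 2.68 and 3.63 in AECII and 5.78 and 5.80 in AECI of mutant lungs. All AECII arrays were below all AECI arrays, and the AECII signals were in the dim range of the array. The difference was -2.12 ± 0.347 in WT (adjusted p = 0.015) and -2.64 ± 0.347 in mutant lungs (adjusted p = 0.00651). Its second spot, with a mean of 2.73, showed -0.08 and 0.15, and with the mean of both spots the WT difference was -1.10 and did not pass.

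Atp6v0d1, the widely expressed isoform, went the opposite way. Its signal was 11.68 and 11.80 in AECII and 10.75 and 10.56 in AECI of WT lungs, and 11.77 and 11.48 in AECII and 10.82 and 10.79 in AECI of mutant lungs. AECII was higher without overlap, and the averaged difference of 0.95 ± 0.177 passed (adjusted p = 0.0132). The 2 isoforms thus had their higher arrays in different populations, with the d2 signal of AECII near the floor of the array and its direction resting on 1 of its 2 spots.

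The a subunits carry the proton path and steer the pump to particular membranes. Atp6v0a1 had 9.87 and 10.41 in AECII and 11.24 and 11.03 in AECI of WT lungs, and 9.92 and 9.81 in AECII and 10.92 and 10.90 in AECI of mutant lungs. It was lower in AECII on every array, by an average of -1.02 ± 0.198 (adjusted p = 0.0158), and 3 other spots of the gene differed less in WT lungs (-0.10, -0.17 and -0.37). Atp6v0a4, the isoform of kidney intercalated cells, had 7.61 and 8.03 in AECII and 8.64 and 9.20 in AECI of WT lungs, and 8.02 and 8.34 in AECII and 9.65 and 9.14 in AECI of mutant lungs. It was lower in AECII as well, by an average of -1.16 ± 0.24 (adjusted p = 0.0204).

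Atp6v0a2, an isoform of endosomes and the Golgi, had 7.87 and 8.27 in AECII and 8.29 and 7.12 in AECI of WT lungs, and 8.31 and 8.66 in AECII and 8.08 and 7.84 in AECI of mutant lungs. Its arrays overlapped in WT lungs, and its own direction was not stable to the processing. Set against a1 on the same array, the centred ratio was 0.32 to 1.30 in AECII and -1.45 to -0.38 in AECI. That ratio rests on 1 spot of each gene, and ratios of other spots were not taken. A dimmer a2 spot was 6.59 to 6.97 in AECII and 6.68 to 7.55 in AECI. The dimmest a2 spot was 5.78 to 6.69 in AECII and 4.95 to 6.79 in AECI, so both overlapped. The ratio of a4 to a1 overlapped between the populations, from -0.45 to 0.47 and from -0.67 to 0.67. Atp6v0b, a subunit of the proteolipid ring, had 12.53 and 12.52 in AECII and 11.88 and 11.78 in AECI of WT lungs, and 12.81 and 12.90 in AECII and 12.26 and 12.13 in AECI of mutant lungs. Its AECII arrays were the higher, with an averaged difference of 0.68 ± 0.167 (adjusted p = 0.0377) that shrank to 0.08 with the mean of its spots.

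**Figure D2:**
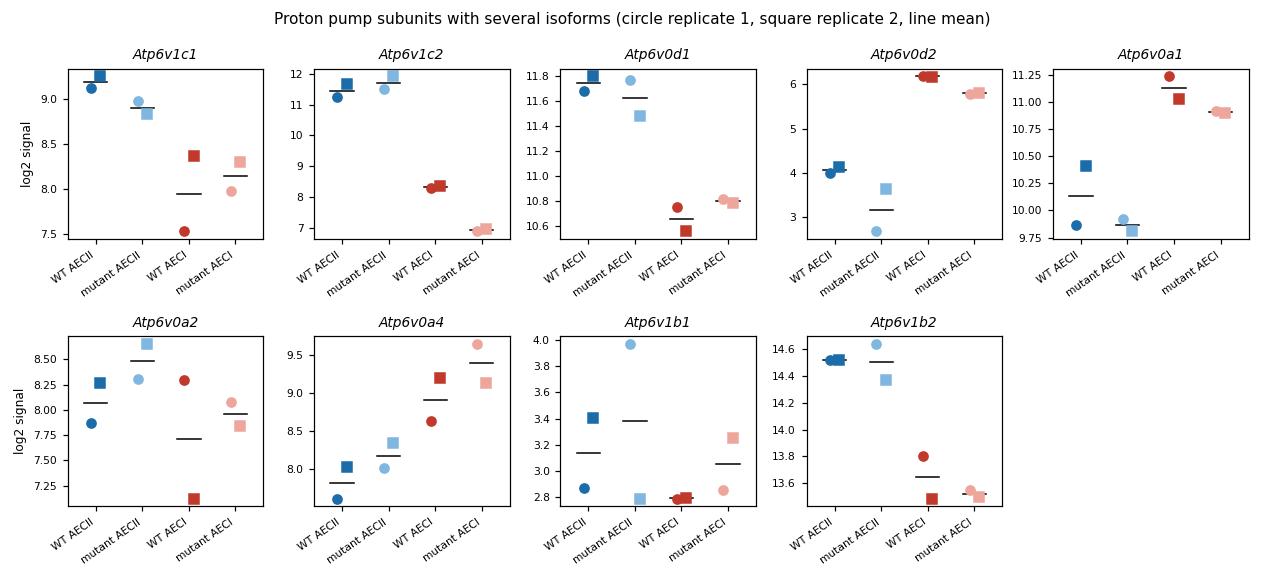
Log2 signal on each of the 8 arrays for the proton pump subunits that have several isoforms, 1 panel per gene with its own axis; circles are replicate 1, squares replicate 2 and lines the group mean (n = 2). Atp6v1c2 is above 11 in all AECII and below 9 in all AECI samples, whereas Atp6v0d2, Atp6v0a1 and Atp6v0a4 are higher in AECI.

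The hydrolases that passed were mostly higher in AECII. Ctsc, a dipeptidyl peptidase that activates serine proteases, had 13.20 and 13.03 in AECII and 11.39 and 11.07 in AECI of WT lungs, and 13.19 and 12.80 in AECII and 10.15 and 10.97 in AECI of mutant lungs. AECII was higher on every array, by 1.88 ± 0.351 in WT (adjusted p = 0.0237) and 2.44 ± 0.351 in mutant lungs (adjusted p = 0.00898). Ctsz, a carboxypeptidase, had 12.98 and 13.31 in AECII and 11.66 and 11.65 in AECI of WT lungs, and 13.27 and 13.47 in AECII and 12.08 and 11.58 in AECI of mutant lungs. It too was higher on each AECII array, by 1.49 ± 0.287 in WT (adjusted p = 0.0263) and 1.54 ± 0.287 in mutant lungs (adjusted p = 0.0224). The WT calls of Ctsc and Ctsz were lost under 5 and 8 of 17 alternatives, and the mutant calls under 1 and 4.

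Lipa, the acid lipase that frees cholesterol and fatty acids in the lysosome, had 9.33 and 9.39 in AECII and 7.45 and 7.25 in AECI of WT lungs, and 8.99 and 8.94 in AECII and 7.88 and 7.01 in AECI of mutant lungs. The populations were well apart, by 2.01 ± 0.334 in WT (adjusted p = 0.016) and 1.52 ± 0.334 in mutant lungs (adjusted p = 0.04). The call was lost under 4 of 17 alternatives in WT and 11 of 17 in mutant lungs. Neu1, a sialidase that trims glycans, had 8.59 and 9.15 in AECII and 7.01 and 6.84 in AECI of WT lungs, and 9.27 and 9.14 in AECII and 7.87 and 8.34 in AECI of mutant lungs. All AECII arrays were above all AECI arrays, with the mutant AECI arrays the closer. The difference was 1.94 ± 0.307 in WT (adjusted p = 0.0134) and 1.10 ± 0.307 in mutant lungs (adjusted p = 0.0867), and the WT call was lost under 3 of 17 alternatives.

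Hexa, a subunit of the hexosaminidase that degrades GM2 ganglioside, had 10.76 and 11.29 in AECII and 10.45 and 9.56 in AECI of WT lungs, and 10.93 and 10.96 in AECII and 8.58 and 9.41 in AECI of mutant lungs. The gap was narrow in WT, where the difference of 1.02 ± 0.425 did not pass (adjusted p = 0.242), and wider in mutant lungs, where 1.95 ± 0.425 did (adjusted p = 0.0387). The call in mutant lungs was lost under 9 of 17 alternatives, and the test of the difference between genotypes is given below. Gusb, the lysosomal glucuronidase, had 10.15 and 10.21 in AECII and 8.62 and 7.87 in AECI of WT lungs, and 9.85 and 10.01 in AECII and 9.20 and 7.85 in AECI of mutant lungs. It was higher in AECII without overlap, by an average of 1.67 ± 0.338 (adjusted p = 0.0187).

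Ctsb, a cysteine protease, had 12.14 and 12.20 in AECII and 11.12 and 11.20 in AECI of WT lungs, and 12.09 and 12.53 in AECII and 11.28 and 11.25 in AECI of mutant lungs. Its averaged difference of 1.03 ± 0.185 passed (adjusted p = 0.0117), and the arrays did not overlap. Gaa, which degrades glycogen in the lysosome, had 8.28 and 8.56 in AECII and 7.29 and 7.39 in AECI of WT lungs, and 8.16 and 7.44 in AECII and 6.87 and 6.93 in AECI of mutant lungs. It was higher in AECII on each array, by an average of 0.99 ± 0.221 (adjusted p = 0.0267).

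Ctsl was the only hydrolase that passed as lower in AECII, in the averaged contrast, where 6 of the 17 hydrolases had a negative difference. Its signal was 11.95 and 11.91 in AECII and 12.53 and 12.58 in AECI of WT lungs, and 12.00 and 12.11 in AECII and 12.75 and 12.79 in AECI of mutant lungs. This cysteine protease lay lower on all AECII arrays, by an average of -0.67 ± 0.165 (adjusted p = 0.0376), which did not pass within a genotype (adjusted p = 0.191 and 0.13). Its 10 repeat spots showed differences of -0.97 to -0.53 in WT and -0.95 to -0.62 in mutant lungs, while an eleventh, dimmer spot annotated with another sequence of the gene showed -0.08 and 0.65. The averaged call was lost under 10 of 16 alternatives, among them the mean of all its spots. Averaged calls of other members were lost under 11 of 16 alternatives for Atp6v0b, 9 for Atp6v1c1, 8 for Gaa, 7 for Atp6v1h, 5 each for Gusb and Atp6v0a4, 4 each for Hexa and Atp6v0a1, 3 for Atp6v1b2 and 2 for Atp6v0d1.

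Of the other hydrolases and activators, none passed in any population comparison. The protease Ctsd differed by 0.25 in both genotypes, Ctsa, which protects Neu1 and Glb1, by 0.33 and 0.48, and the galactosidase Glb1 by 0.51 and 0.71 (WT and mutant). The sphingomyelinase Smpd1 differed by -0.29 and -0.48, and the galactosidase Gla by -0.34 and -0.51. Another spot of Smpd1, nearly as bright (mean 10.46 against 10.83), differed by -0.21 in WT and 0.25 in mutant lungs. Psap, the precursor of the saposins, ranged from 7.72 to 9.11 with overlap and no stable direction. On the spots used, the lysosomal membrane proteins Lamp1 (14.57 to 15.39) and Lamp2 (13.16 to 13.89) had narrow ranges. So did the tetraspanin Cd63 (10.38 to 10.59). Lamp1 differed by 0.65 in WT and 0.31 in mutant lungs (adjusted p = 0.228 and 0.56). A much dimmer spot of Lamp2 was 3.36 to 4.42 in AECII and 5.78 to 6.71 in AECI, without overlap. Another spot of Lamp2 was 10.08 to 10.91 in AECII and 10.12 to 10.47 in AECI, with overlap. The signals of Lamp1 were near the upper end of the array.

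**Figure D3:**
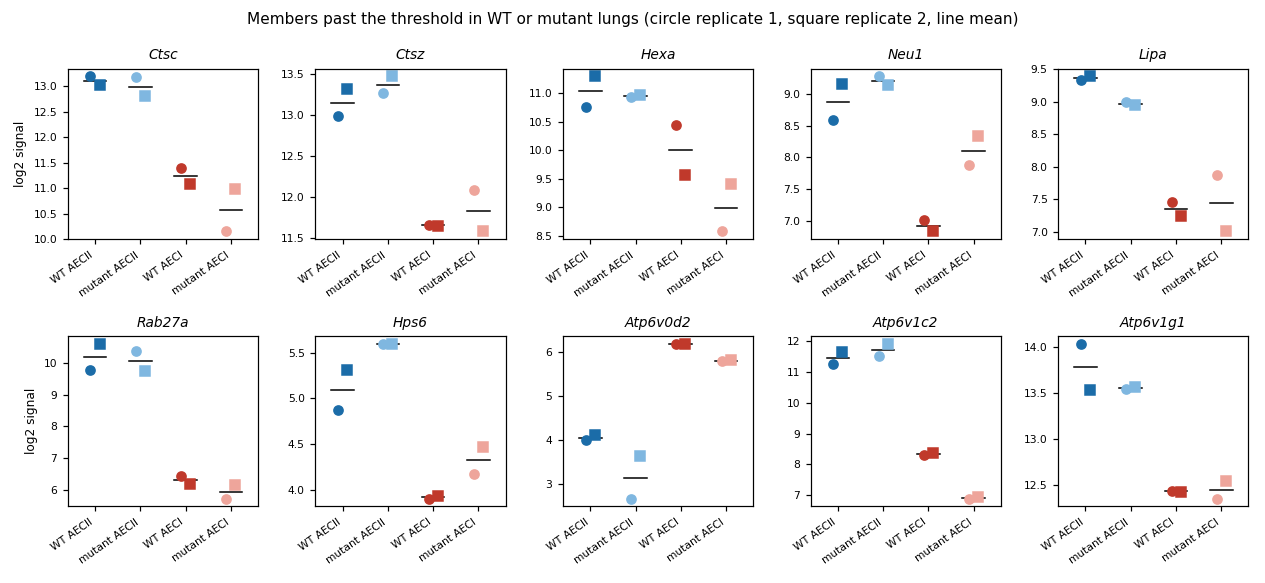
Log2 signal on each of the 8 arrays for the 10 members past the threshold in WT or mutant lungs, 1 panel per gene with its own axis; circles are replicate 1, squares replicate 2 and lines the group mean (n = 2). In 9 panels every AECII sample is above every AECI sample, and in the panel of Atp6v0d2 every AECII sample is below.

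Asah1 and Ctss had wide spreads between replicates, and their signals moved with some markers of other cell types. Asah1, the acid ceramidase, had 11.18 and 10.15 in AECII and 10.94 and 11.62 in AECI of WT lungs, and 11.44 and 10.05 in AECII and 10.32 and 12.57 in AECI of mutant lungs. The mean of 10 mesenchymal markers was 6.72 and 5.23 in AECII and 5.08 and 6.55 in AECI of WT lungs, and 7.01 and 5.04 in AECII and 5.15 and 7.01 in AECI of mutant lungs, so that in each group the array with more Asah1 also had the higher mesenchymal signal. Col3a1, a collagen of fibroblasts, was 9.17 and 5.45 in WT AECII and 5.53 and 9.45 in mutant AECI. The mean of 8 endothelial markers had the same order of replicates in each group. This endothelial mean was 5.3 and 4.75 in AECII and 4.51 and 5.37 in AECI of WT lungs. In mutant lungs it was 5.64 and 4.77 in AECII, and in AECI it was higher in replicate 2 (5.66). No population difference of Asah1 passed (adjusted p = 0.756 and 0.695), and the part of mesenchymal or endothelial cells was not tested.

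Ctss, a cathepsin of macrophages and other antigen-presenting cells, had 2.47 and 3.84 in AECII and 3.19 and 5.49 in AECI of WT lungs, and 3.22 and 2.78 in AECII and 7.81 and 3.18 in AECI of mutant lungs. It was highest in mutant AECI replicate 1, then in WT AECI replicate 2, and was dim elsewhere. Tyrobp, an adaptor of myeloid cells, was 7.37 and 7.11 on these arrays and between 2.95 and 5.93 on the others. The mean of the 12 leukocyte markers was 6.17 and 6.12 on these arrays and between 5.61 and 5.85 on the others. Single markers of that list did not all follow. Cd68 was highest in WT AECI replicate 1 (9.53). Laptm5 was 3.40 in mutant AECI replicate 1 and 4.07 in mutant AECII replicate 1. The differences of Ctss, -1.18 in WT and -2.49 in mutant lungs, did not pass (adjusted p = 0.731 and 0.396), and the part of leukocytes was not tested.

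**Figure D4:**
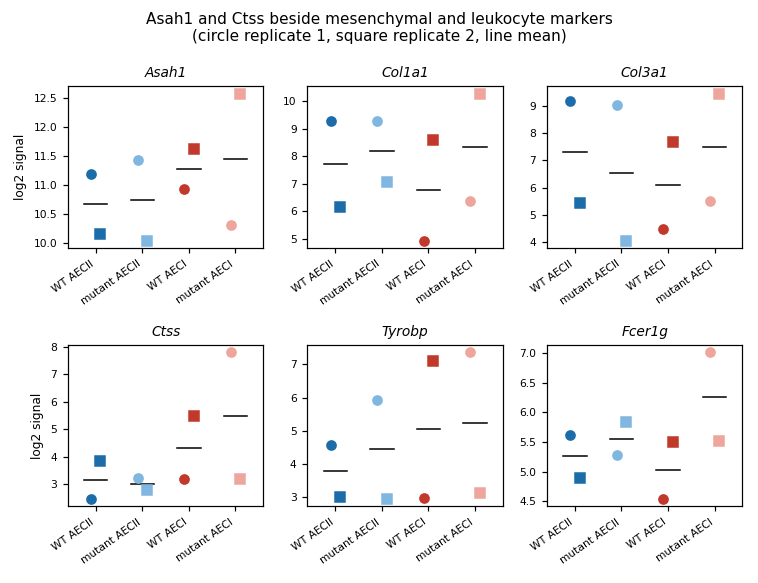
Log2 signal on each of the 8 arrays for Asah1 beside the collagens Col1a1 and Col3a1, and for Ctss beside the myeloid genes Tyrobp and Fcer1g, each panel with its own axis; circles are replicate 1, squares replicate 2 and lines the group mean (n = 2). Asah1 and the collagens are high in the same replicate of each group (12.57 for Asah1 and 9.45 for Col3a1 in mutant AECI replicate 2), and Ctss peaks at 7.81 where Fcer1g is 7.02.

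Tfeb, a transcription factor that induces lysosomal genes, had 8.68 and 9.15 in AECII and 9.90 and 9.74 in AECI of WT lungs, and 8.94 and 9.58 in AECII and 9.53 and 9.66 in AECI of mutant lungs. By this spot, the brightest of 4, it was the lower in AECII of WT lungs (-0.90, adjusted p = 0.169). It overlapped in mutant lungs (-0.33, adjusted p = 0.617), with no call. The next spot, nearly as bright (mean 9.03), differed by 0.02 in WT and 0.18 in mutant lungs. The dimmer spots differed by 0.14 and -0.62 in WT and by 0.50 and 0.26 in mutant lungs. On the spots used, the calcium channels of the lysosome, Mcoln1 (6.95 to 8.90) and Mcoln3 (6.30 to 8.08), varied by up to 1.18 and 1.0 (SD) within a group. They showed no stable direction. Another spot of Mcoln1, with a mean of 8.21 against 8.23, had 8.21 and 8.46 in WT AECII. The spot used had 8.62 and 6.95 there.

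Factors of the family of Tfeb bind DNA with the core CACGTG, which reads the same on both strands. The RefSeq table of GRCm38.p6 held windows of 300 bases, from 250 before to 50 after the start, for 41 of the 50 members, and 15 of these (36.6%) held CACGTG against 8.09% of the 27025 genes with a window. The longer GTCACGTG, which contains CACGTG and was searched on both strands, was in 10 of the 41 (24.4%) against 2.55% of all genes. Among the 22 members past the averaged threshold, 16 had a window and 5 of these held CACGTG, namely Ctsl, Gaa, Rab27a, Atp6v0b and Atp6v0d1. The 250 bases before the start are shown for the members with the largest differences, Atp6v1c2 and Rab27a, beside 4 further members as examples of windows that hold the core, with CACGTG in capitals.
Atp6v1c2 (chr12:17324731-17324980, minus strand): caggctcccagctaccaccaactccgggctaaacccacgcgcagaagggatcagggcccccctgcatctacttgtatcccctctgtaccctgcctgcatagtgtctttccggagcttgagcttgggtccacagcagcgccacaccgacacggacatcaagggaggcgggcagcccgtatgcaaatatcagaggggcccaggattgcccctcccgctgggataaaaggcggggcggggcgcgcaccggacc
Rab27a, first start (chr9:73044560-73044809, plus strand): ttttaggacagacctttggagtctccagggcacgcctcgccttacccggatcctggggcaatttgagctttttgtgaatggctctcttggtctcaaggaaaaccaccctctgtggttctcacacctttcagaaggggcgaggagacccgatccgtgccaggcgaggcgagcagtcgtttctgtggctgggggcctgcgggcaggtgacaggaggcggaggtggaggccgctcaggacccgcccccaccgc
Rab27a, second start (chr9:73063898-73064147, plus strand): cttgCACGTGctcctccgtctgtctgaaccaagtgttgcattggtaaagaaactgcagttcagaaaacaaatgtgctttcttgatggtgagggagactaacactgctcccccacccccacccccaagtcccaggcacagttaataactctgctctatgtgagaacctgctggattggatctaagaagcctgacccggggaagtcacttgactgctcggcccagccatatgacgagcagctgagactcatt
Atp6v0b (chr4:117887330-117887579, minus strand): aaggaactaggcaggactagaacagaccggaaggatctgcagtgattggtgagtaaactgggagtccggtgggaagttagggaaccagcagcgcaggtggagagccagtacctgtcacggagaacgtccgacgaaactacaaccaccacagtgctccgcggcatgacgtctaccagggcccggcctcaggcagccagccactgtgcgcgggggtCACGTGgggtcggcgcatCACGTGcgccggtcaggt
Atp6v1a (chr16:44139260-44139509, minus strand): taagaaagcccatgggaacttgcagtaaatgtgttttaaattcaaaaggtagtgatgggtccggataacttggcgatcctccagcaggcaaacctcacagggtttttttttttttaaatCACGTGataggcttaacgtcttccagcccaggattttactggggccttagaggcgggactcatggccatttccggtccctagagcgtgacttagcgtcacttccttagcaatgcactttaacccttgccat
Ctsa, second start (chr2:164833523-164833772, plus strand): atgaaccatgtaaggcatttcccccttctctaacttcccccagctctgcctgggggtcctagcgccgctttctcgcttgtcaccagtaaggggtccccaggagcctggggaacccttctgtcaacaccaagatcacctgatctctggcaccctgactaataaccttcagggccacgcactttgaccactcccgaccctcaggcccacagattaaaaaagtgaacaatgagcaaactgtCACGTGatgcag
Gla (chrX:134601006-134601255, minus strand): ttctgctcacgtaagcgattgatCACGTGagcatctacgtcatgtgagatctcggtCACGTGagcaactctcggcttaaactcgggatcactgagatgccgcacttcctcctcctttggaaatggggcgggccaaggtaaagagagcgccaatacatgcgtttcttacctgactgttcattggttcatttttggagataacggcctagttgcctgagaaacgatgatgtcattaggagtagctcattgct
The core was not in the stretch of Atp6v1c2 nor at the first start of Rab27a, and at the second start of Rab27a it began 246 bases before the start. It began 36 and 18 bases before the start in Atp6v0b, 131 in Atp6v1a, 12 in Ctsa, and 227 and 194 in Gla. Atp6v1a and Gla, which hold the core, had no call between the populations. A match of letters is a description of the window only.

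Mutant and WT lungs were compared within each population to find where inhibition of Fgfr2b signalling went with a change in these genes. By limma, 0 of the 50 members passed in AECII, where 0.0122% of all genes did, and 0 passed in AECI, against 0.0163% of all genes. At an unadjusted p under 0.05 there was 1 member in AECII, against 4.41% of all genes, and there were 3 in AECI, against 7.64%. The median difference of the members was -0.02 in AECII and 0.09 in AECI, against 0.00 for all genes in both. The arrays of the genotypes did not overlap for 20 members in AECII and 27 in AECI, against 35.7% and 35.4% of all genes. These effects share arrays with the population differences above and are given beside them, not as separate support.

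In AECI the smallest p was that of Atp6v1c2, whose arrays are given above. Both mutant AECI arrays, at 6.89 and 6.95, were below both WT AECI arrays, at 8.31 and 8.37. The difference was -1.42 (95% interval -2.08 to -0.76, unadjusted p = 0.00146, adjusted p = 0.338), which did not pass. In AECII the same gene differed by 0.26 (interval -0.40 to 0.92). The mean of the AECII markers was 11.82 and 11.70 on the WT AECI arrays and 10.86 and 11.09 on the mutant AECI arrays, and its part in this difference was not tested.

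Neu1 differed the other way in AECI, with 7.87 and 8.34 in mutant against 7.01 and 6.84 in WT cells. The arrays were apart, by 1.18 (interval 0.45 to 1.91, unadjusted p = 0.00666), without passing the threshold (adjusted p = 0.461). Hexa followed with -1.01 (adjusted p = 0.653), Rab3d with -0.68 (adjusted p = 0.686) and Ctsc with -0.67 (adjusted p = 0.704).

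In AECII the smallest p was that of Atp6v0d2, with 2.68 and 3.63 in mutant and 3.99 and 4.12 in WT cells, all dim signals. The difference was -0.90 (interval -1.72 to -0.08, unadjusted p = 0.0358, adjusted p = 0.998). The mean of the 12 AECI markers was 9.69 and 9.43 on the WT AECII arrays and 10.44 and 10.94 on the mutant AECII arrays. All 12 were higher in mutant AECII on average, 11 of them without overlap of the arrays and 0 past the threshold (9 at an unadjusted p under 0.05, median difference 1.16), and their part in the mutant effects in AECII was not tested. Gaa (-0.62), Rab3d (-0.63), Hps6 (0.51) and Psap (0.68) came next, each with an adjusted p of 0.998. For Rab27a the mutant effect was -0.14 in AECII (interval -1.06 to 0.78) and -0.38 in AECI (interval -1.30 to 0.55), so that a 2-fold lower signal in the mutant was within both intervals. Lamp2 and Gla lie on the X chromosome, and their effects were 0.02 and 0.18 in AECII and 0.15 and 0.34 in AECI.

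The difference between the mutant effects of the populations, which equals the difference between the population contrasts of the genotypes, was past the threshold for 0 of the 50 members and for 0% of all genes by limma, with 1 member at an unadjusted p under 0.05, against 4.71% of all genes. This was Atp6v1c2, with 1.68 (interval 0.75 to 2.62, unadjusted p = 0.00381, adjusted p = 0.999). Neu1 followed with -0.84, Hexa with 0.93 (interval -0.50 to 2.35), Atp6v1f with 0.55 and Tfeb with 0.57, all with an adjusted p of 0.999. The calls of Hexa and Hps6 in mutant and of Neu1 and Atp6v1g1 in WT lungs are thus not shown to differ between the genotypes.

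**Figure D5:**
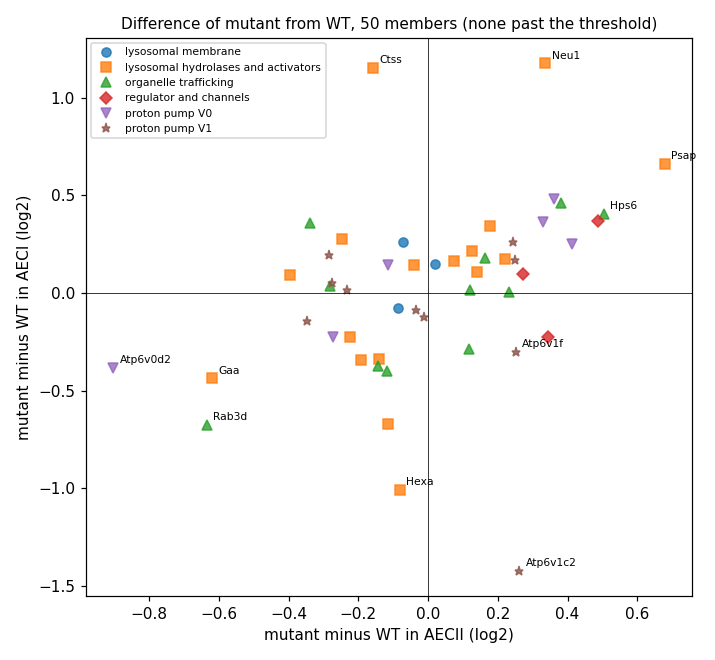
Log2 difference of mutant minus WT in AECII (horizontal axis) and in AECI (vertical axis) for the 50 members, with the role as marker; none passed the threshold and no error bars are drawn. Atp6v1c2 lies lowest at -1.42 in AECI, Neu1 highest at 1.18, and Atp6v0d2 farthest left at -0.90 in AECII.

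Further genes of the same pathways were taken from lists beyond the members. Napsa and Lamp3 in these lists are also among the 12 AECII markers above, so their higher signals in AECII are not a further observation. Of 26 other lysosomal enzymes, 1 was higher and 0 lower in AECII of WT lungs, and 3 were higher and 1 lower in mutant lungs. For this and the next lists, 7.01% of all genes passed in WT and 7.8% in mutant lungs. Napsa, an aspartic protease that processes surfactant proteins, had 14.08 and 14.08 in AECII and 12.21 and 11.80 in AECI of WT lungs, and 13.62 and 13.91 in AECII and 10.73 and 11.01 in AECI of mutant lungs. It was higher throughout in AECII, by 2.07 and 2.89 (adjusted p = 0.00794 and 0.00243).

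Of 21 other lysosomal membrane genes, 3 were higher and 1 lower in each genotype. Lamp3, a protein of lamellar bodies, was higher by 1.94 and 2.90, Npc1, which exports cholesterol from lysosomes, by 1.93 and 2.07, and Scarb2, a receptor that carries glucocerebrosidase, by 1.24 and 1.44, while the transporter Abca2 differed by -1.40 and -1.64. Of 14 further pump subunits and accessory proteins none passed in either genotype by limma, with 4 and 5 at an unadjusted p under 0.05, against 20% and 21.5% of all genes. Among them Tcirg1, the a3 isoform of V0, differed by -1.62 in WT (adjusted p = 0.0584) and -0.98 in mutant lungs (adjusted p = 0.209).

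Of 36 other genes of vesicle sorting and docking, 4 were higher and 1 lower in each genotype. Rab27b, the paralog of Rab27a, was higher by 3.43 and 4.96 (adjusted p = 0.00371 and 0.00136), and Sytl2, a ligand of Rab27 proteins, by 4.99 and 5.39 (adjusted p = 0.00648 and 0.00458). Rab3a was higher by 2.35 and 3.14. Unc13d, a priming factor that also binds Rab27a, was lower in AECII (-3.31 and -2.42, adjusted p = 0.00299 and 0.00667), with 6.97 and 6.75 in AECII and 9.97 and 10.38 in AECI of WT lungs, and 7.99 and 8.07 in AECII and 10.79 and 10.11 in AECI of mutant lungs.

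Of 25 genes of the Tfeb family and of its regulation, 1 was higher and 0 lower in each genotype. Mitf, a relative of Tfeb, was higher by 2.13 in WT (adjusted p = 0.0339) and differed by 1.74 in mutant lungs (adjusted p = 0.0637), and Flcn, a regulator of these factors, differed by 1.29 (adjusted p = 0.0582) and was higher by 1.68 in mutant lungs (adjusted p = 0.0221).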

How the data were processed

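RNA of sorted AECI and AECII was amplified, labelled with Cy5 and hybridised to 8 single-colour arrays, per the labels. The deposited log2 values had already been normalized by the authors, since every array held the same quantiles; the submitters' processing notes list limma without a version. Background correction, spot filters, detection limits, slides and scan batches could not be taken from the sources used here, so a dim signal could not be told from background. Quantile normalization hides changes in total RNA.

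The table held 62976 spots, of which 43941 had 1 gene symbol and 19035 had none, and 57 named spots with a missing value were left out. The spot with the highest mean was used for each of 24568 genes, with no filter on dim genes. A model of the 4 group means was fitted to the 8 arrays in limma 3.58.1 (R 4.3.3; lmFit, then eBayes, two-sided). P-values were adjusted by Benjamini-Hochberg across the 24568 genes, with calls at an adjusted p under 0.05. There were 4 residual and 2.87 prior degrees of freedom, and the median residual SD was 0.392. There were 5 comparisons: AECII with AECI in each genotype, mutant with WT in each population, and the difference of the mutant effects. The average of the population contrasts over both genotypes was added after seeing the data. The fit was tested on simulated data. Promoter windows were searched in the RefSeq table with Python 3.11.15, pandas 2.3.3 and, for plots, matplotlib 3.10.9.

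The members and all lists were chosen with earlier results of these data known. All members are accounted for; values per array are given for members past the threshold in any comparison and for the members of their subunit or gene families, then per mutant comparison and for the difference the 5 members with the smallest p, and of each further list up to 4 genes with the smallest p. For 15 members whose direction turned with the processing, levels are given without a difference between the populations.

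Results were recomputed after a further quantile normalization or median centring, without the 25% or 50% of genes with the lowest mean, with all spots of a gene averaged, with a trended and robust eBayes prior, with array weights, with the 4 compared arrays alone, with a block for the replicate number, with each array left out, at an adjusted p under 0.1, and with a fold of at least 2 required. Deviations from the group means at the same replicate number correlated at -0.069 to 0.028 between groups. With 2 arrays per group this cannot settle whether the numbers pair the samples.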

Additional observations from a re-analysis of the deposited data

Results flagged for a closer look

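The effect of the mutant on Atp6v1f, a subunit of the rotor of V1, had opposite directions in the populations, with every mutant array above every WT array in AECII (0.25) and every mutant array below in AECI (-0.30). The effects differed by 0.55 (95% interval -0.33 to 1.43), and the test of that difference did not pass (limma, unadjusted p = 0.18, adjusted p = 0.999). Such a pattern held for 1 of the 50 members and for 4.4% of all genes.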

How the results depend on the processing

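The 8 calls of members in WT lungs became 18 without the lowest 50% of genes, 20 with the trended and robust prior, 4 with only the 4 arrays compared and 15 at an adjusted p under 0.1, and were 2 to 8 when 1 array was left out: 3 and 2 without WT AECII replicate 1 and 2, and 3 and 2 without WT AECI replicate 1 and 2. The 8 calls in mutant lungs became 16, 17, 4 and 15 under the same settings, 5 with the replicate block, and 3 to 6 without 1 array: 5 without either WT AECII array, 3 and 4 without mutant AECII replicate 1 and 2, and 4 without mutant AECI replicate 2. With the replicate block, 6 calls were left in WT lungs, and whether the replicate numbers pair the samples is not known. The 22 averaged calls were 17 to 26 under other settings and 11 to 18 without 1 array, with 12 and 14 without WT AECII replicate 1 and 2 and 11 and 13 without mutant AECII replicate 1 and 2. The cause was not tested. Calls of all genes moved as well. In WT lungs they were 2323 without the lowest 50% of genes, where fewer genes were tested and 46 members were left. They were 2587 with the trended and robust prior, 822 with the 4 arrays compared and 2659 at an adjusted p under 0.1. In mutant lungs they were 2568, 2904, 1287 and 2836 under these settings. The averaged contrast had 2955 to 4967 under the settings that kept all arrays. Atp6v1c2 and Rab27a passed under every alternative in each genotype, and 10 of the 22 averaged calls passed under every alternative that held them. No mutant effect and no difference of effects passed under any alternative. Over all genes, calls were 527 to 2659 in WT (1722 as reported), 626 to 2904 in mutant (1917), 0 to 11 for the mutant effect in AECII (3), 0 to 25 in AECI (4) and 0 to 1 for their difference (0).

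With the mean of all spots, the difference of Tfeb in mutant lungs reversed to 0.15. The sign was kept under every alternative in both genotypes for 34 of the 50 members. Signals without a detection limit restrict what can be said of dim genes such as Atp6v0d2, Atp6v1b1, Hps6 and Ctss, and the first and the last of these rest on 1 spot or on 1 array.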
